A study of Oryza sativa with 12 samples.

Results

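The genes described here carry water, phosphate, ammonium and potassium across the membranes of rice cells, measured in the stem base of seedlings, where crown roots form. They are all nuclear genes with a probe set of their own on the Affymetrix Rice Genome Array whose symbol or synonym is PIP, TIP, NIP, SIP, PHT, PT, AMT or HAK followed by a number, after any leading Os was removed. The rule matched 88 genes and left 70 members of 17903 nuclear genes with such a probe set. The 18 genes without one are 10 phosphate transporters (PHT4-1 to PHT4-7, PT5, PT10 and PT13), 4 aquaporins (NIP1-2, NIP3-3, PIP2-3 and TIP5-1), 3 potassium transporters (HAK6, HAK19 and HAK24) and the ammonium transporter AMT1-3. Of the 70, 64 belong to the transporter families: 25 aquaporins, 9 phosphate transporters, 8 ammonium transporters and 22 potassium transporters. The other 6 (HSFA2C, GRF4, FLO6, HCT3, bHLH142 and PHT3) share only a name with them and are given apart. Where several probe sets measured a gene, the one with the highest mean log2 signal was used.

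Aquaporins are membrane channels that let water, and in some cases small uncharged solutes, pass. The PIP group sits mainly in the plasma membrane and the TIP group in the vacuole membrane, the NIP group includes channels for silicic and boric acid, and the SIP group is small and lies on internal membranes. Phosphate transporters of the PT group bring in phosphate together with protons, AMT proteins carry ammonium, and HAK proteins are potassium carriers that work from low outside concentrations. In cereals these genes are best known from roots, where they take up nutrients and load the xylem.

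The study compared crl1, a mutant known for forming no crown roots, with wild type, both of cultivar Taichung 65. Seedlings aged 8 days in half-strength Murashige and Skoog medium were sampled just before indole-3-acetic acid, the natural auxin, reached a final 1e-06 M in the liquid medium, and again 2 h and 4 h later. The 12 arrays therefore form 6 groups of 2: crl1 at 0, 2 and 4 h and wild type at 0, 2 and 4 h. One extract pooled 20 stem bases of plants kept at 26 °C with 12 h of light a day. The study speaks of independent repetitions and says no more on what they share, so the p-values measure the spread between these samples. Untreated stem bases at 2 h and 4 h were not analysed here, and auxin cannot be told apart from the hours passed. The level of CRL1 itself was not analysed here.

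Values are MAS5 signals on a linear scale that the authors had set to a trimmed mean of 100 on every array. The background of an array, the 95th percentile of 64 reporter probe sets for genes that rice lacks, lay between 5.83 and 18.5. Wild type 2 h repetition 2 stood apart, with the highest background, a GAPDH 3' to 5' signal ratio of 35.6 against 3.08 to 17.3 on the other arrays, and a mean correlation with them of 0.904 against 0.935 to 0.949. Stem base markers were present: the shoot meristem genes OSH1, OSH6 and OSH71, the leaf genes RBCS, RCA and CAB2R, the phloem transporters SUT1 and SUT2, the xylem cellulose synthases CESA4, CESA7 and CESA9 and the crown root gene WOX11 were above background on 12 of 12 arrays. Of the measured root tip and root hair markers, SHR1, NIP2-1 (Lsi1) and Lsi2 were above it on 12 arrays, SCR1 on 11, and PIN2 and WOX9 on 8 each. The crown root gene CRL4 was above it on 11 arrays. OSH15 and CAB1R have no probe set of their own, and LHCB, PSBR, RCC3, RTH1, RHL1, CRL5 and RPP13 were not found by name. In whole stem bases, fewer cells of a type and less RNA per cell cannot be told apart.

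Of the 70 members, 61 passed the filter on low signals, among them 24 of 25 aquaporins, 6 of 9 phosphate, 7 of 8 ammonium and 19 of 22 potassium transporters and 5 of the 6 genes of other families. Those that did not were NIP4-1, PT6, PT7, PT11 (known from mycorrhizal roots), AMT3-3, HAK20, HAK26, HAK27 and bHLH142. On all 12 arrays 45 members lay above background: 20 aquaporins, 4 phosphate, 4 ammonium and 14 potassium transporters and 3 others. The brightest probe set of each group was that of PIP1-2 (signals 3703 to 8231, median 5000), PIP2-1 (3314 to 6876, median 4600), TIP2-2 (3777 to 8684, median 5240), NIP2-1 (795 to 1608, median 1200), SIP1-1 (389 to 957, median 608), PT8 (213 to 486, median 369), AMT1-1 (84.6 to 173, median 122) and HAK5 (2042 to 4163, median 2370). Signals of different probe sets do not rank transcripts, so these say only how far each lay above background. For 22 members the probe set is marked s or x, a type that can also bind other transcripts; TIP2-1, NIP2-2, PIP2-2, AMT3-1 and HAK22 are among them.

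Most of these genes varied little among the 6 groups. In the 45 members above background on every array, the difference between the highest and the lowest group mean ran from 0.23 log2 units in PIP2-6 to 2.21 in TIP2-1, with a median of 0.68, and was under 1 in 33 of them. The SD between replicates, pooled over groups, had a median of 0.31 log2 units over the same genes. Member names are written here with a hyphen, as the gene table also spells them (TIP4-1 for TIP4;1).

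The comparison of 4 h with 0 h over both genotypes gave the only members past the threshold of a limma adjusted p of 0.05: 1 aquaporin, TIP4-1, was higher and 1 ammonium transporter, AMT1-2, was lower, out of 61. Among all measured genes 0.633% passed in this comparison (104 of 16429). At an unadjusted p under 0.05 there were 12 members (4 higher, 8 lower), which is 19.7% of those measured, where 9.77% of all genes reached it. The median member stood at -0.02 log2 units and the median gene at 0.03. Aquaporins had a median of -0.10 (11 of 24 above 0), phosphate transporters -0.16 (2 of 6), ammonium transporters -0.12 (1 of 7) and potassium transporters 0.10 (12 of 19). After median centring of the arrays the all-gene median moved to -0.09 and that of the potassium transporters to -0.02, with 9 of 19 above 0.

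**Figure D1:**
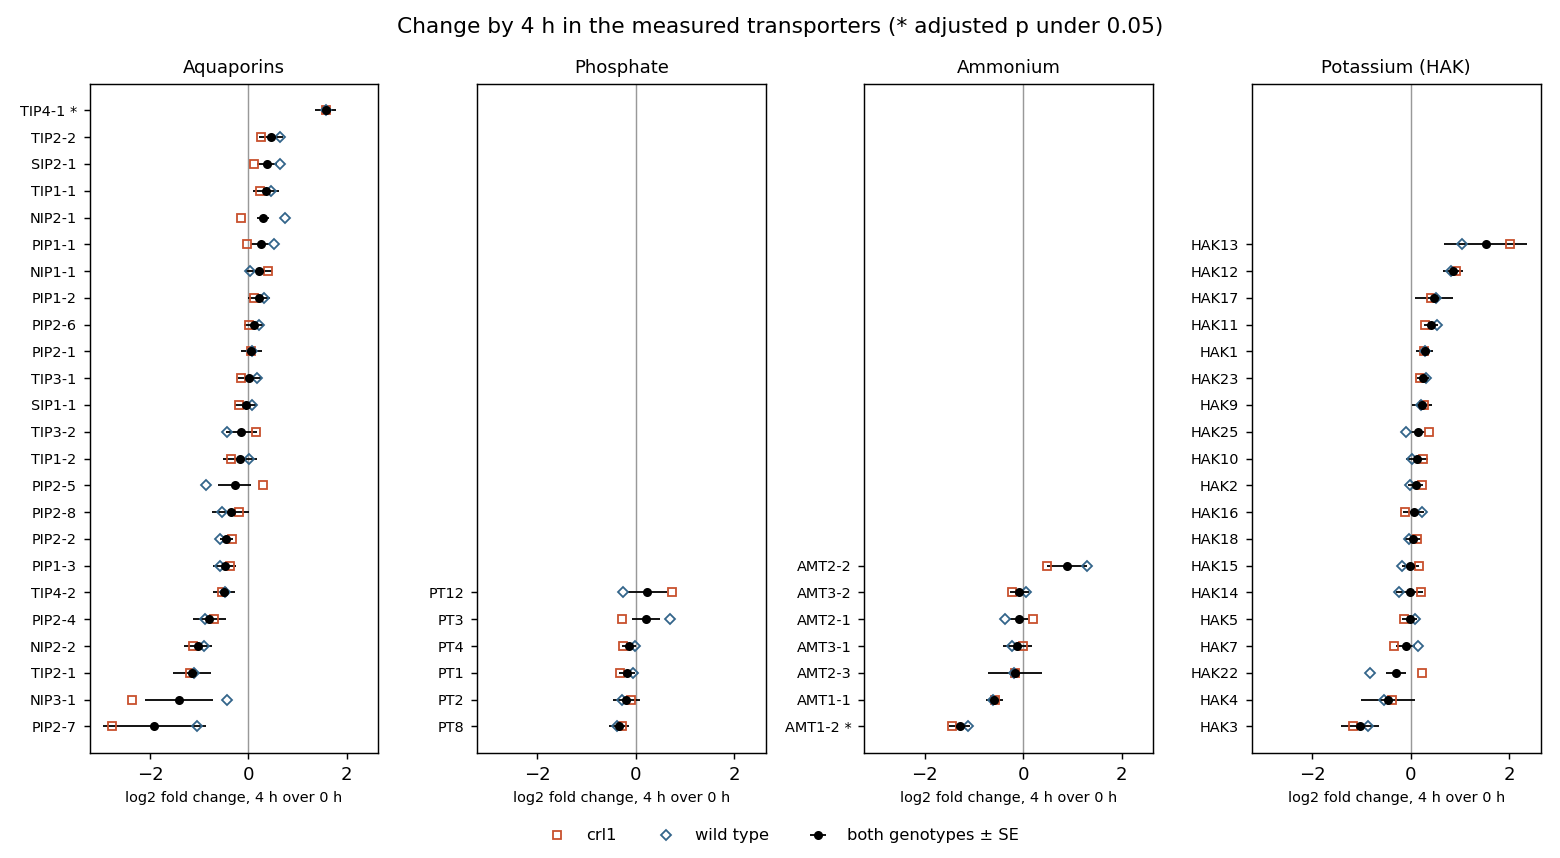
Log2 fold change of the 56 measured transporters at 4 h over 0 h, 1 row per gene within each family, as open squares for crl1, open diamonds for wild type and filled circles with SE for both genotypes together. TIP4-1 at 1.57 and AMT1-2 at -1.29 carry the asterisk of an adjusted p under 0.05, and in both the genotypes lie close together, while genes with signals near background such as PIP2-7, NIP3-1 and HAK13 have wide error bars.

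TIP4-1 (LOC4338163), an aquaporin of the vacuole membrane group, had signals of 501 and 330 at 0 h, 722 and 570 at 2 h and 1346 and 1086 at 4 h in crl1. In wild type it had 497 and 466 at 0 h, 683 and 462 at 2 h and 1877 and 1084 at 4 h. All 4 arrays at 4 h lay above all 8 earlier ones, and at 2 h the wild type arrays still lay on both sides of those at 0 h. The rise at 4 h over both genotypes was 1.57 ± 0.22 log2 units, 2.97-fold (SE, 4 arrays per time, limma adjusted p = 0.017). It was 1.57 ± 0.31 in crl1 (adjusted p = 0.21) and 1.57 ± 0.31 in wild type (adjusted p = 0.17), and the difference of the 4 h responses was 0.00 ± 0.44 (adjusted p = 1.0). With the repetition as a block both genotypes passed on their own, at an adjusted p of 0.037 in crl1 and 0.023 in wild type. The call over both genotypes was missed with arrays centred on their median (1.45, adjusted p = 0.058). It was also missed without crl1 0 h repetition 2 (0.061), crl1 4 h repetition 1 (0.098) or 2 (0.066), wild type 0 h repetition 1 (0.093) or 2 (0.081), or wild type 4 h repetition 1 (0.095). Across the 12 fits with 1 array left out the rise was 1.37 to 1.77. A second probe set of the gene did not pass the filter, with signals of 2.18 to 9.0.

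None of the other 7 measured TIP genes passed. TIP1-1 and TIP2-2, the brightest of them, were at 0.36 ± 0.26 and 0.46 ± 0.24 at 4 h over both genotypes (adjusted p = 0.76 and 0.64). TIP4-2 (LOC4324277) was at -0.50 ± 0.22 (adjusted p = 0.55). At 2 h it had 153 and 119 in crl1 against 205 and 160 in wild type (-0.42 ± 0.31, adjusted p = 0.60). TIP2-1 was at -1.14 ± 0.39 (adjusted p = 0.38), with arrays that overlapped between the hours, and at -0.65 by its second probe set.

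AMT1-2 (LOC4330008), an ammonium transporter of the high-affinity AMT1 group, had signals of 58.4 and 68.2 at 0 h, 80.7 and 61.8 at 2 h and 30.1 and 17.9 at 4 h in crl1. In wild type they were 80.8 and 75.5 at 0 h, 74.5 and 79.4 at 2 h and 30.5 and 41.8 at 4 h. The 4 arrays at 4 h were the lowest of the 12 and the 8 earlier ones stood close together. The gene fell by 1.29 on the log2 scale at 4 h, 2.44-fold (SE 0.21, 4 arrays per time, limma adjusted p = 0.031). In crl1 the change was -1.44 ± 0.30 (adjusted p = 0.25) and in wild type -1.13 ± 0.30 (adjusted p = 0.37), and the responses differed by -0.31 ± 0.42 (adjusted p = 0.99). The call was missed without crl1 0 h repetition 1 (0.098) or 2 (0.11), crl1 2 h repetition 1 (0.062) or 2 (0.061), crl1 4 h repetition 1 (0.061) or 2 (0.11), wild type 0 h repetition 1 (0.15) or 2 (0.12), or wild type 4 h repetition 1 (0.17), with changes of -1.47 to -1.10. It is dim enough that a filter at the 75th percentile of signals removes it. The gene table lists the name AMT1-3 for this gene too, and its direct neighbour on chromosome 2, there called AMT1-3, has no probe set of its own.

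The remaining ammonium transporters gave smaller or less certain differences. AMT1-1 (LOC4336365), of the same group, had 173 and 132 at 0 h, 112 and 106 at 2 h and 117 and 87.8 at 4 h in crl1, and 152 and 149, 132 and 127, and 84.6 and 114 in wild type. Its 4 h arrays lay below its 0 h arrays in both genotypes, by -0.59 ± 0.17 (adjusted p = 0.25). AMT2-2 gave signals of 12.3 and 16.8 at 4 h against 12.3 and 8.47 at 0 h in crl1, with the 0 h arrays at or below background, and 12.1 and 19.5 against 7.69 and 5.12 in wild type. In crl1 that is at least 1.25-fold higher at 4 h, and the fitted change was 0.49 ± 0.57 (adjusted p = 0.93). In wild type 1 of the 2 arrays at 0 h lay above background, and the fitted change of 1.29 ± 0.57 (adjusted p = 0.72) rests on that array and a value below background. By its brighter probe set AMT3-1 was lower at 2 h in both genotypes (-0.83 ± 0.29, adjusted p = 0.65). In crl1, where both 2 h arrays lay at or below background, it was lower by at least 1.09-fold. Its signals were 14.0 and 16.4 at 0 h, 7.08 and 11.1 at 2 h and 11.8 and 19.3 at 4 h in crl1, and 19.9 and 25.7, 13.4 and 11, and 20.5 and 18.3 in wild type. At 0 h both crl1 arrays lay below both wild type arrays (-0.58 ± 0.42, adjusted p = 0.70), and at 4 h the genotypes overlapped. A second AMT3-1 probe set, with signals of 2.22 to 14.2, gave 0.23 at 2 h over both genotypes. It was at 0.85 in crl1 and -0.40 in wild type at 2 h, and at -0.46 between the genotypes at 0 h.

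**Figure D2:**
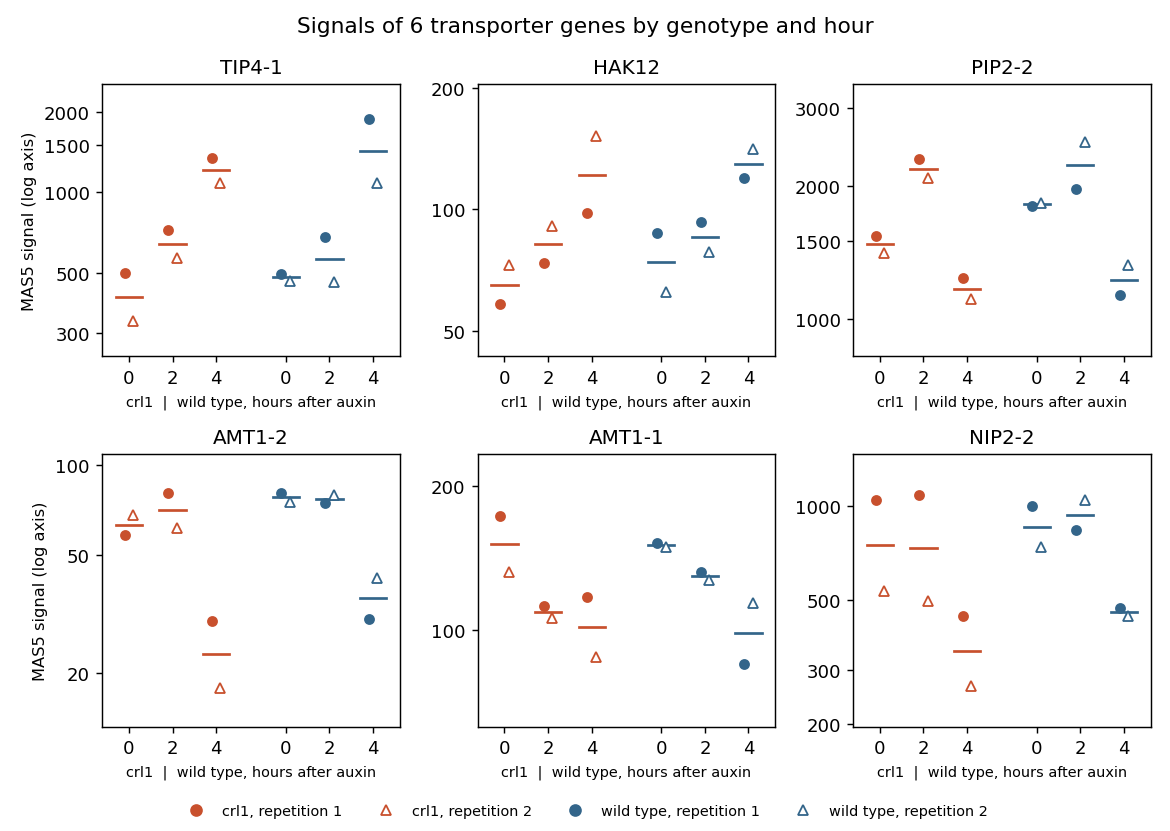
MAS5 signals (log axis) of TIP4-1, HAK12, PIP2-2, AMT1-2, AMT1-1 and NIP2-2 on all 12 arrays by genotype and hour, with circles for repetition 1, triangles for repetition 2 and bars for group means on the log scale. TIP4-1 and AMT1-2 part at 4 h in both genotypes, and PIP2-2 is highest at 2 h and lowest at 4 h.

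The 2 silicon channels of the NIP group took different courses. NIP2-1 (LOC4330713, Lsi1), the channel through which rice roots take up silicic acid, had signals of 1067 and 1214 at 0 h, 1608 and 1405 at 2 h and 1111 and 956 at 4 h in crl1. In wild type it had 961 and 795 at 0 h, 1194 and 1316 at 2 h and 1465 and 1477 at 4 h. So crl1 lay above wild type at 0 h and 2 h and below it at 4 h, with no overlap between the genotypes at any hour. The 4 h change was -0.14 ± 0.18 in crl1 and 0.75 ± 0.18 in wild type (adjusted p = 0.94 and 0.31), and the responses differed by -0.90 ± 0.26, with an adjusted p of 0.99. At 2 h it lay higher than at 0 h by 0.40 ± 0.18 in crl1 and 0.52 ± 0.18 in wild type (adjusted p = 0.97 and 0.58).

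NIP2-2 (LOC4340558, Lsi6), known for unloading silicon from the xylem in shoots, had 1052 and 537 at 0 h, 1090 and 498 at 2 h and 445 and 266 at 4 h in crl1. Wild type gave 1000 and 742 at 0 h, 841 and 1049 at 2 h and 471 and 446 at 4 h. Every 4 h array lay below every earlier array, by -1.02 ± 0.29 log2 units against 0 h (adjusted p = 0.25), and the change was -1.13 ± 0.41 in crl1 and -0.91 ± 0.41 in wild type. Lsi2 (LOC4331328), an efflux carrier for silicon and no aquaporin, had 168 and 94.2 at 0 h, 273 and 140 at 2 h and 159 and 115 at 4 h in crl1, against 165 and 56.5, 159 and 82.3, and 175 and 168 in wild type. The genotypes overlapped at 0 h and 2 h, and at 4 h both crl1 arrays lay below both wild type arrays (-0.34 ± 0.52, adjusted p = 0.94). The summed signal of the 6 measured root tip and root hair markers, which include NIP2-1 and Lsi2 themselves, was 1320 to 1410 in crl1 and 1010 to 1250 in wild type at 0 h. At 4 h it was 1200 to 1390 in crl1 and 1740 to 1800 in wild type. Most of this sum is the signal of NIP2-1, so the sum cannot show the course of the other root markers. Of these, PIN2 had group means of 5.22 in crl1 and 36.4 in wild type at 0 h (-2.8, limma adjusted p = 0.027). At 0 h WOX9 was at -1.32 (adjusted p = 0.53), SHR1 at -0.31, SCR1 at 0.07 and Lsi2 at 0.38. At 4 h PIN2 was at -1.24, WOX9 at -0.51, SHR1 at 0.09 and SCR1 at 0.67. The part of the root markers in the course of NIP2-1 was not tested.

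**Figure D3:**
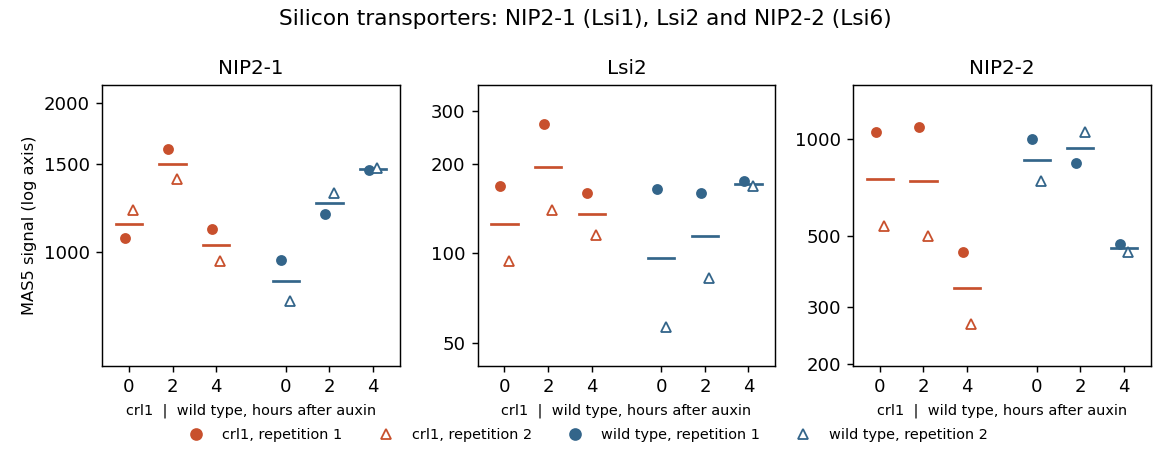
MAS5 signals (log axis) of the silicon genes NIP2-1 (Lsi1), Lsi2 and NIP2-2 (Lsi6) on 12 arrays by genotype and hour, with circles for repetition 1, triangles for repetition 2 and bars for group means. NIP2-1 is near 1000 at 4 h in crl1 and near 1470 in wild type, and NIP2-2 is lowest at 4 h in both.

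The other NIP genes were less clear. NIP1-1 (LOC4328814) had signals of 422 to 1023, with a difference of 2 h responses of -0.54 ± 0.52 (adjusted p = 0.91) that came to 0.02 without wild type 2 h repetition 2. NIP3-1 (LOC4349102), a boric acid channel in rice, was above background on 2 arrays only, the crl1 0 h arrays with 15.2 and 14.8. Against these it was at least 1.08-fold lower at 2 h and at least 1.74-fold lower at 4 h in crl1, and crl1 at 0 h was at least 1.95-fold above wild type. NIP3-1 passed the filter only through those 2 arrays, so these differences were built into its being measured and no test is given.

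In the plasma membrane group the 4 arrays of PIP2-2 (LOC4330049) at 2 h lay above, and those at 4 h below, all of its 0 h arrays. Its signals were 1543 and 1406 at 0 h, 2295 and 2080 at 2 h and 1235 and 1110 at 4 h in crl1, and 1804 and 1828, 1965 and 2517, and 1133 and 1325 in wild type. Over both genotypes it was at 0.43 ± 0.13 at 2 h (adjusted p = 0.55) and at -0.45 ± 0.13 at 4 h (adjusted p = 0.27). A second, dimmer probe set gave 1.33 at 2 h and -0.27 at 4 h. PIP2-4 (LOC4343119) and PIP2-5 (LOC4343121) lie near PIP2-1 on chromosome 7: PIP2-5 is next to PIP2-1, and 1 gene separates it from PIP2-4. At 4 h over both genotypes PIP2-4 was at -0.79 ± 0.33 (adjusted p = 0.52) with overlapping arrays. PIP2-1 was at 0.06 ± 0.21 (adjusted p = 0.97) by its brightest probe set, 0.08 by another and -0.61 by its dimmest one (57.3 to 251, adjusted p = 0.54). For crl1 against wild type at 4 h its 3 probe sets gave 0.19, 0.20 and -1.10, so they disagree. PIP2-4 had 1916 and 1558 at 0 h, 1177 and 1055 at 2 h and 1155 and 977 at 4 h in crl1, and 1209 and 1464, 825 and 1324, and 379 and 1382 in wild type. In crl1 the later arrays all lay below those at 0 h (-0.63 ± 0.47 at 2 h, adjusted p = 1.0), and in wild type they overlapped with them.

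PIP2-5 was the aquaporin with the largest genotype difference at 4 h among those above background in that comparison. It had 651 and 401 in crl1 against 117 and 275 in wild type at 4 h, a difference of 1.51 ± 0.48 log2 units, 2.84-fold (adjusted p = 0.50). At 0 h the values were 529 and 325 in crl1 against 320 and 330 in wild type, and at 2 h 409 and 175 against 204 and 321, so the genotypes overlapped at both earlier hours. The responses to 4 h differed by 1.16 ± 0.68 (adjusted p = 0.99). PIP2-8, near background with signals of 7.84 to 38.7, had a difference of 2 h responses of 0.63 ± 0.74 that turned to -0.11 without crl1 0 h repetition 1. The brightest PIP genes, PIP1-1, PIP1-2, PIP2-1 and PIP2-6, had group means within 0.53, 0.36, 0.39 and 0.23 log2 units of each other.

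Of the 2 SIP genes, SIP1-1 overlapped between the genotypes at every hour. SIP2-1 (LOC4332668) had 30.1 and 32.5 in crl1 against 43.2 and 54.5 in wild type at 4 h (-0.64 ± 0.28, adjusted p = 0.66), and 25.0 to 32.9 on the other 8 arrays. Here only the wild type 4 h arrays stood out.

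Between crl1 and wild type no member passed limma's threshold at 0 h, 2 h or 4 h, where 0.14%, 0.11% and 0.0974% of all genes did. At an unadjusted p under 0.05 there were 3, 2 and 6 members of 61, beside 8.9%, 11.2% and 8.16% of all genes. Averaged over the hours 0 members passed and 1.6% of all genes did, and 13 of 61 members (21.3%; 9 higher, 4 lower) had an unadjusted p under 0.05, beside 19.0% of genes. The arrays of the genotypes did not overlap in 21, 17 and 28 of 61 members at 0 h, 2 h and 4 h, beside 42.9%, 37.5% and 47.8% of all genes. The median member difference was 0.11 at 0 h, 0.01 at 2 h, -0.04 at 4 h and 0.00 over the hours, and the median gene stood at -0.05, 0.01, 0.04 and 0.00. PT12 and NIP3-1 passed the filter on low signals only through crl1 arrays, and PHT3 only through wild type arrays. Their directions were therefore built into any of these counts that hold them.

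TIP2-1 (LOC4330207), a vacuole membrane channel, had the most negative difference between crl1 and wild type over the hours among measured members. It gave 681 and 450 in crl1 against 939 and 1324 in wild type at 0 h, 486 and 513 against 1309 and 976 at 2 h, and 386 and 155 against 274 and 991 at 4 h. The genotypes did not overlap at 0 h and 2 h and did at 4 h. The differences were -1.01 ± 0.55, -1.18 ± 0.55 and -1.09 ± 0.55 (adjusted p = 0.61, 0.46 and 0.73), and -1.09 ± 0.32 over the hours (adjusted p = 0.13). Its second probe set gave -0.85, -0.89, -1.02 and -0.92 in the same order.

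HAK16 (LOC4333298), a carrier known in rice for potassium uptake, was the only member whose 6 crl1 arrays all lay on one side of the 6 wild type arrays, 1 of 61 members beside 3.13% of all genes (1.14% higher in crl1). It had 222 and 184 at 0 h, 228 and 174 at 2 h and 210 and 168 at 4 h in crl1, and 160 and 88.6, 121 and 143, and 128 and 154 in wild type. The lowest crl1 array (168) was close to the highest wild type array (160). Over the hours the difference was 0.60 ± 0.17 log2 units, 1.51-fold (6 arrays per genotype, adjusted p = 0.12), and at 0 h it was 0.77 ± 0.29 (adjusted p = 0.48). HAK27, its direct neighbour on chromosome 3, did not pass the filter.

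**Figure D4:**
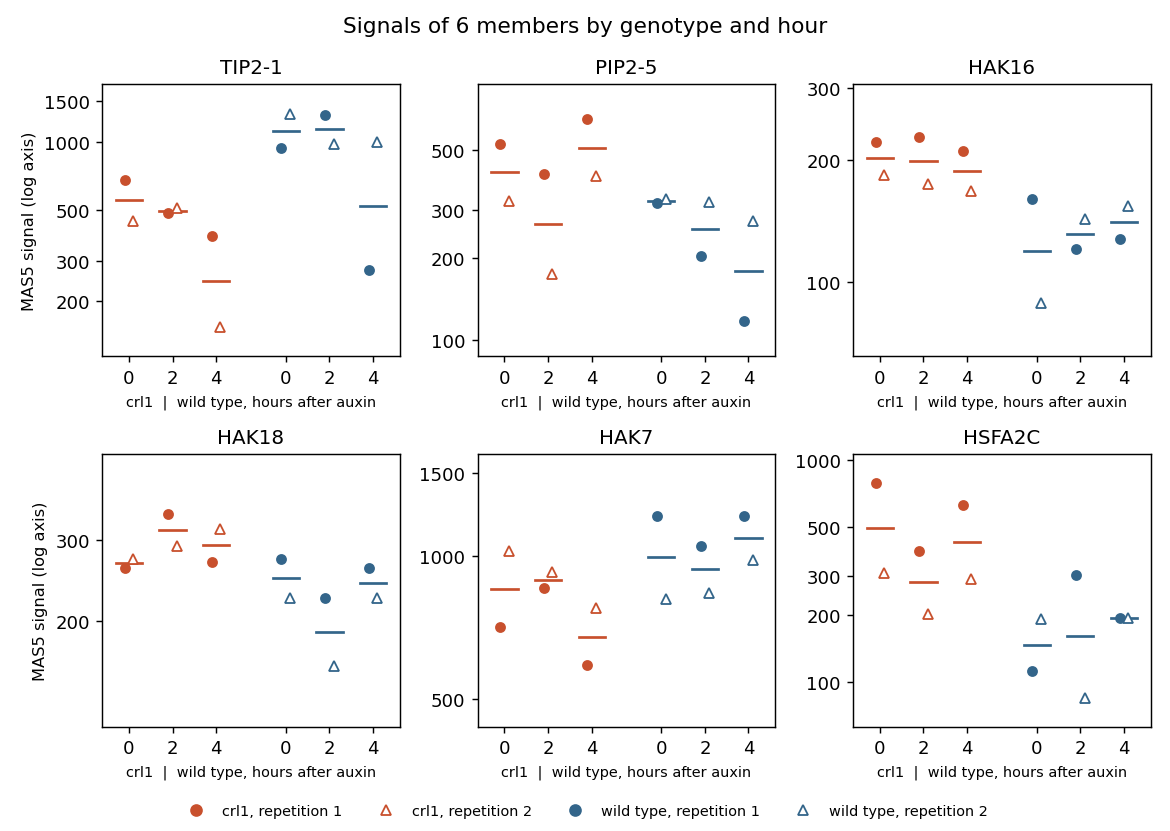
MAS5 signals (log axis) of TIP2-1, PIP2-5, HAK16, HAK18, HAK7 and HSFA2C on 12 arrays by genotype and hour, with circles for repetition 1, triangles for repetition 2 and bars for group means. All crl1 arrays of HAK16 lie above all wild type arrays, those of PIP2-5 do so at 4 h, and those of TIP2-1 lie below at 0 h and 2 h.

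Among the other potassium transporters, HAK18 (LOC4347862) was higher in crl1 at 2 h, with 340 and 291 against 224 and 160 in wild type (0.73 ± 0.22, adjusted p = 0.38). Without wild type 2 h repetition 2 that difference was 0.49. HAK22 (LOC4342173) gave 51.1 and 51.7 in crl1 against 26.8 and 36.4 in wild type at 2 h, and lay the other way round at 0 h, with 25.0 and 37.6 against 44.2 and 40.3. Its responses differed by 1.18 ± 0.43 at 2 h and by 1.05 ± 0.43 at 4 h (adjusted p = 0.87 and 0.99). HAK7 (LOC4344235) was lower in crl1 at 4 h, with 589 and 776 against 1217 and 983 in wild type (-0.69 ± 0.27, adjusted p = 0.60), and overlapped at the earlier hours. HAK10 had 236 and 408 in crl1 against 500 and 445 in wild type at 0 h (-0.60 ± 0.31, adjusted p = 0.59). That difference was -0.30 with the GAPDH ratio as a covariate and -0.18 by a second HAK10 probe set (101 to 194). HAK3, above background on 10 arrays, was at 0.74 ± 0.53 at 2 h (adjusted p = 0.60).

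With time, HAK12 (LOC9270408), a carrier linked in rice to sodium retrieval from the xylem, came nearest to the threshold among potassium transporters. It had 58.2 and 72.6 at 0 h, 73.8 and 91.2 at 2 h and 98.1 and 152 at 4 h in crl1, and 87.5 and 62.4, 93.3 and 78.6, and 120 and 141 in wild type. Every 4 h array was above every earlier array, by 0.86 ± 0.20 log2 units, 1.82-fold, over 0 h (adjusted p = 0.13). With genotype and repetition as a random block the adjusted p was 0.035. HAK5 (LOC4326945), which in rice takes up potassium and moves it to the shoot, had its highest signals at 2 h: 3394 and 3219 in crl1 and 2682 and 4163 in wild type, beside 2502 and 2323 in crl1 and 2042 and 2378 in wild type at 0 h. The 2 h difference over both genotypes was 0.53 ± 0.15 (adjusted p = 0.45), and 0.37 without wild type 2 h repetition 2. At 4 h HAK5 stood at -0.02 ± 0.15 against 0 h (adjusted p = 0.98). A second, far dimmer HAK5 probe set, with signals of 0.951 to 51.0, went the other way at 2 h. Over both genotypes it gave -1.21 at 2 h and -0.12 at 4 h.

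The other potassium transporters named for their course were smaller in size or closer to background. HAK9 stood at 0.23 ± 0.20 at 4 h (adjusted p = 0.81), HAK11 at -0.47 ± 0.20 and HAK15 at -0.73 ± 0.24 at 2 h in wild type (adjusted p = 0.63 and 0.57), and HAK3 at -1.18 ± 0.53 in crl1 and -0.87 ± 0.53 in wild type at 4 h (adjusted p = 0.81 and 0.83). HAK15 had 249 and 221 in crl1 and 219 and 134 in wild type at 2 h, beside 224 and 272 in crl1 and 287 and 279 in wild type at 0 h, and its 2 h change in wild type was -0.37 without repetition 2. Its 2 h responses differed by 0.65 ± 0.34 (adjusted p = 0.87), and by 0.30 without that array. HAK1 (162 to 336), a high-affinity potassium uptake carrier of rice roots, and HAK2 (189 to 302), HAK23 (432 to 680) and HAK25 (257 to 436) had group means within 0.72, 0.36, 0.57 and 0.50 log2 units of each other. HAK4, HAK13, HAK14 and HAK17 were measured but lay above background on 4, 4, 11 and 3 arrays.

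Within a genotype, and in the difference of the responses, 0 of 61 members passed limma's threshold. In crl1 0.0609% of all genes passed at 2 h and 0.0243% at 4 h, in wild type 0.00609% and 0.0365%, and for the 2 differences 0.0%. At an unadjusted p under 0.05 there were 3 and 7 members in crl1 at 2 h and 4 h, 4 and 11 in wild type, and 1 and 2 for the differences, where 4.9%, 6.91%, 6.42%, 6.96%, 4.47% and 2.74% of all genes did. The crl1 counts at both hours hold NIP3-1, which passed the filter only through the crl1 0 h arrays, so its falls were built in. Over both genotypes at 2 h 0 members passed beside 0.183% of genes, and 6 of 61 had an unadjusted p under 0.05 beside 6.33%. For no member was a difference between the responses of the genotypes shown.

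No phosphate transporter passed the threshold in any of the 12 comparisons. PT8 (LOC4348741), a phosphate uptake carrier of roots and shoots, had 402 and 486 at 0 h, 302 and 437 at 2 h and 383 and 343 at 4 h in crl1, against 319 and 408, 297 and 390, and 213 and 356 in wild type. PT1, PT2, PT4 and PT8, the 4 above background on 12 arrays, had group means within 0.35, 0.49, 0.49 and 0.68 log2 units of each other. All 6 measured members lay higher in crl1 at 0 h and at 2 h (medians 0.20 and 0.20), and 3 of 6 at 4 h, none past the threshold. Of all genes, 45.0%, 51.0% and 55.3% lay higher in crl1 at 0 h, 2 h and 4 h. The highest values at 0 h and 2 h, 0.53 and 0.94, were those of PT12. That gene passed the filter only through crl1 arrays, so its direction was built into these counts. After median centring 5 of 6 lay higher in crl1 at 0 h and at 2 h, and 4 of 6 did at 2 h once repetition 2 of wild type was left out.

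At 4 h the arrays of crl1 and wild type did not overlap in 5 of the 6 measured phosphate transporters, beside 47.8% of all genes. PT2 and PT12 lay higher in crl1, and PT1, PT3 and PT4 lower. The widest differences were those of PT12 (LOC4331634) and PT3 (LOC4348740), both near background. PT12, next to PT1 on chromosome 3, had 13.3 and 25.2 in crl1 against 5.7 and 7.11 in wild type, where both arrays were at or below background, so it was at least 1.93-fold higher. PT12 passed the filter only through crl1 arrays, so that a difference in this direction was built into its being measured, and no test is given. PT3, next to PT8 on chromosome 10, had 14.9 and 11.5 in crl1 against 22.5 and 21.8 in wild type (-0.76 ± 0.39, adjusted p = 0.74). The 4 h responses of the genotypes differed by -0.97 ± 0.55 in PT3 (adjusted p = 0.99). A second PT3 probe set, with signals of 1.06 to 15.3, went the other way. It gave 0.47 between the genotypes at 4 h and 1.09 for the difference of 4 h responses. Of the brighter neighbours of PT12 and PT3, PT1 had 196 and 238 in crl1 against 247 and 251 in wild type at 4 h (-0.20 ± 0.23, adjusted p = 0.92). The arrays of PT8 overlapped between the genotypes at every hour.

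Ammonium transporters lay mostly lower in crl1: 5 of 7 at 0 h, 7 of 7 at 2 h and 5 of 7 at 4 h, with medians of -0.20, -0.25 and -0.16, none past the threshold. The share of all genes that lay higher in crl1 was 45.0%, 51.0% and 55.3% at these hours. At 2 h the values ran from -0.45 to -0.03. Once repetition 2 of wild type was left out it was 4 of 7 at 2 h, with a median of -0.08. AMT3-2 (LOC4334717) was at -0.42 ± 0.27 at 2 h, with 79.4 and 93.6 in crl1 against 127 and 105 in wild type (adjusted p = 0.56).

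Wild type 2 h repetition 2, the array that stood apart, touched the brightest members most. Of the 12 members with a median signal of 1000 or more, 10 were higher on it than on repetition 1, with a median of 0.77 log2 units and a range of -1.34 to 1.36. Of the other 33 members above background on all arrays 16 were higher, with a median of -0.01. TIP2-2, for one, had 8684 on it and 3777 on repetition 1, and TIP1-1 8324 and 3249. The 2 h change of TIP2-2 in wild type was 0.37 ± 0.34 (adjusted p = 0.80). Without repetition 1, which leaves the array that stood apart alone in its group, 4 members passed between the genotypes at 2 h (HAK15, HAK18, TIP1-1 and TIP1-2), 5 in wild type at 2 h (HAK5, HAK15, PIP1-2, TIP1-1 and TIP2-2), 3 over both genotypes at 2 h (HAK5, HAK15 and PIP2-2) and 2 between the genotypes over the hours (HAK18 and HSFA2C). Among them HAK18 was then at 0.97 between the genotypes at 2 h (adjusted p = 0.019) and HAK5 at 0.92 in wild type at 2 h (adjusted p = 0.012). Whether RNA quality on that array has a part in this was not tested.

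**Figure D5:**
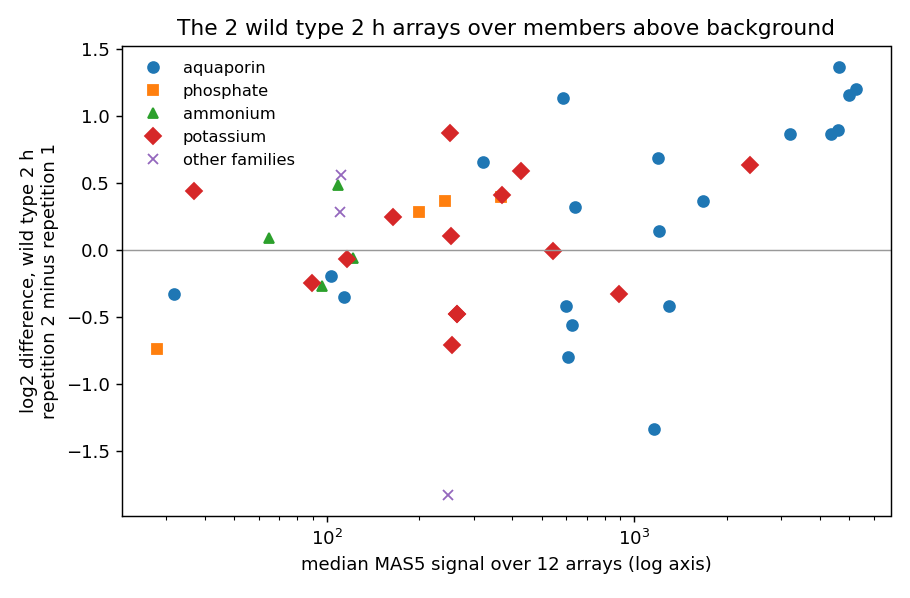
Log2 difference between wild type 2 h repetition 2 and repetition 1 (y axis) against the median MAS5 signal over 12 arrays (x axis, log), 1 point for each of the 45 members above background on every array, by family. The 6 brightest aquaporins lie between 0.86 and 1.36, while members below a signal of 1000 scatter around 0.

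The genes of other families that share a member name behaved as follows. HSFA2C (LOC4348646), a heat stress transcription factor listed with the synonym SIP2, had 786 and 309 at 0 h, 388 and 203 at 2 h and 629 and 290 at 4 h in crl1, against 112 and 192, 302 and 85.2, and 194 and 194 in wild type. It was higher in crl1 by 1.75 ± 0.63 at 0 h and 1.13 ± 0.63 at 4 h (adjusted p = 0.45 and 0.76) and by 1.23 ± 0.36 over the hours (adjusted p = 0.13). At 0 h it was 0.99 with the GAPDH ratio as a covariate. With the repetition as a block it passed over the hours (SE 0.29, adjusted p = 0.049), the only member to do so. Its second probe set went the other way at 0 h (-0.49) and gave -0.10 over the hours. HCT3, a hydroxycinnamoyltransferase with signals of 6.3 to 23.7, had a difference of 2 h responses of -1.14 ± 0.74 (adjusted p = 0.87), and of -0.69 without wild type 2 h repetition 2. A second HCT3 probe set, with signals of 3.78 to 26.1, gave 0.0 for this difference. HCT3, GRF4, FLO6 and PHT3 did not pass in any comparison. In the fit without a block HSFA2C did not pass either, so leaving all 6 out could not change a count of members past the threshold there.

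Genes that act around these transporters were counted by lists of names. Of 14 phosphate signalling and transfer genes found 12 were measured, of 13 nitrate and ammonium use genes 8, and of 14 other potassium and sodium genes 6. The lists rest on names alone, and PHR (LOC9272017) in the phosphate list may be a gene of another kind that shares the symbol. No sulfate transporter was found by name. By limma 0 of these passed in any of the 12 comparisons, and at 4 h against 0 h over both genotypes 1, 2 and 1 had an unadjusted p under 0.05. PHR3 (LOC4328249), a factor of the phosphate starvation response, was lower at 2 h by -0.84 ± 0.19 (adjusted p = 0.23), with 117 and 157 at 2 h against 253 and 168 at 0 h in crl1 and 154 and 113 against 319 and 238 in wild type. SPX2 (LOC4328654), of the phosphate-sensing SPX family, had 42.2 and 32.4 in crl1 against 84.2 and 63.9 in wild type at 0 h (-0.99 ± 0.28, adjusted p = 0.37). GLN2 (LOC4337272), a glutamine synthetase, which fixes ammonium, had 373 and 358 at 4 h against 596 and 554 at 0 h in crl1 (-0.65 ± 0.23, adjusted p = 0.70). In wild type GLN2 had 368 and 513 at 4 h against 429 and 543 at 0 h, which overlapped. These 3 genes were chosen after their values were seen.

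Marker genes of other cell types stood as follows beside the calls at 4 h. The summed signal of the 3 measured shoot meristem genes was 1960 to 2130 in crl1 and 1860 to 2300 in wild type at 4 h, against 2350 to 2480 in crl1 and 2380 to 2830 in wild type at 0 h. That of the 3 leaf genes was 8070 to 9870 in crl1 and 12100 to 12300 in wild type at 4 h, against 8870 to 11800 in crl1 and 10000 to 11500 in wild type at 0 h. Most of the leaf sum is CAB2R. At 4 h against 0 h over both genotypes CAB2R was at 0.27, RBCS at 0.04 and RCA at -0.77. Between crl1 and wild type over the hours RBCS was at -0.66 (limma adjusted p = 0.03), RCA at -0.60 (adjusted p = 0.08) and CAB2R at -0.07 (adjusted p = 0.88). The 2 crown root genes WOX11 and CRL4 summed to 396 to 449 in crl1 and 385 to 472 in wild type at 0 h. The sums were 1930 to 2350 and 1120 to 1690 at 2 h, and 400 to 421 and 215 to 298 at 4 h. Nearly all of this sum is WOX11. CRL4 had group means of 35.0, 38.2 and 36.0 at 0, 2 and 4 h in crl1 and 21.2, 17.6 and 36.8 in wild type. The 3 phloem genes summed to 1270 to 1280 in crl1 and 1130 to 1240 in wild type at 4 h, against 1290 to 1320 and 1230 to 1340 at 0 h. For the 5 xylem and secondary wall genes the sums were 351 to 597 and 357 to 420 at 4 h, against 405 to 462 and 485 to 513 at 0 h. Their part in the changes of TIP4-1 and AMT1-2 was not tested.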

How the data were processed

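The authors deposited 1 table of 12 arrays with MAS5 intensity values per probe set, made in Affymetrix Expression Console per the submitters' processing notes, with no version given. The values show a mean of 100 after trimming 2% at each end. The table holds 57381 probe sets, and genes were named through the platform annotation and a gene table (ASM3414082v1, names and order only): all 17905 genes with a probe set of their own were found in it. Signals were turned to log2. Rice probe sets above the array's median on at least 2 of 12 arrays were kept (32524 probe sets, 16429 nuclear genes). limma 3.58.1 in R 4.3.3 (lmFit, eBayes with trend) fitted 1 mean per group with 6 residual degrees of freedom, two-sided, with Benjamini-Hochberg adjustment over all kept probe sets and a threshold of 0.05. The fit was tested on simulated data. The number of arrays limits the precision. "At least" folds set groups at or below background to it.

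Text names members past the threshold, the 3 largest rises and falls per comparison with non-overlapping arrays above background, and the brightest member of each subfamily. Members and lists were chosen with earlier results of these data known. The reported fit did not pair the samples. Only in the alternative fits with the repetition as a block were equal repetition numbers in the labels taken to pair them. The study's design text calls the repetitions independent, which does not itself say that equal numbers share a run. Deviations of same-numbered arrays correlated from 0.00776 to 0.249 (median 0.133), over 0.1 in 11 of 15 pairs of groups. Alternatives were other scalings, filters and background, the repetition as a block, a GAPDH covariate, the compared groups alone, and each array left out.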

Additional observations from a re-analysis of the deposited data

How the results depend on the processing

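For 4 h against 0 h over both genotypes, 2 members passed in the reported fit, 1 with arrays centred on their median (AMT1-2), 1 with the 75th percentile filter (TIP4-1), 4 with the GAPDH covariate (AMT1-2, TIP1-1, TIP2-2 and TIP4-1), and 0 to 2 with 1 array left out. With the repetition as a block 1 member passed in crl1 against wild type over all times (HSFA2C), 1 in wild type at 4 h and 1 in crl1 at 4 h (TIP4-1 in both), and the block changed no other call. A random block gave 1 in wild type and 1 in crl1 at 4 h (TIP4-1), and the GAPDH covariate 3 in wild type at 4 h. Leaving out 1 array gave 0 to 4 members in crl1 against wild type at 2 h, 0 to 2 over all times, 0 to 5 in wild type at 2 h and 0 to 3 at 2 h over both genotypes. The highest of these came without wild type 2 h repetition 1, which leaves the array that stood apart alone in its group, assumed to vary like the others. In the difference of 2 h responses, leaving out 1 array gave -1.11 to 0.02 for NIP1-1 and -0.11 to 1.37 for PIP2-8, and the cause was not tested. Of the other settings 105 of 114 member counts stayed within 1.5 times. Median centring moved the all-gene median by over 0.1 in some comparisons, most for 2 h in crl1 (to -0.20, with members at -0.21). Members near background limit what a fold can show.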
